A study of Homo sapiens with 6 samples.

Results

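The miR-29 family was measured by 3 mature probes, miR-29a, miR-29b and miR-29c, out of 581 probes with values on the array. They were taken by name: every probe with the stem miR-29a, miR-29b or miR-29c, apart from star strands. The star-strand probes miR-29a*, miR-29b-2* and miR-29c* served as context, and the table held 0 precursor probes of the family. Hep3B cells, an established human hepatocellular carcinoma line, had been transfected with a lipid reagent and either empty pcDNA3.1 (Mock) or pcDNA3.1 carrying HDAC6 (HDAC6). HDAC6 encodes a mainly cytoplasmic deacetylase. Each group had 3 arrays of 10 ug total RNA. Per the labels, RNA from 3 extractions of a condition was mixed into a pool, so the 3 arrays of a group may be hybridizations of 1 pool and every p-value measures a spread that may be technical. The series title states the question as which miRNAs HDAC6 regulates in this cancer, and HDAC6 itself was not measured on the array.

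A miRNA is a short RNA that pairs through its seed, bases 2 to 8, with messenger RNAs and lowers their output. The miR-29 family is best known for repressing genes of the extracellular matrix, among them collagens, fibrillin and elastin. It also represses the DNA methyltransferases DNMT3A and DNMT3B and the survival gene MCL1. In liver it is known for its loss from activated stellate cells during fibrosis, and it is often reported as lower in hepatocellular carcinoma than in normal liver.

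The mature sequences are shown because the members carry the same seed and differ in few later bases, which bears on how far their probes can tell them apart. They are RefSeq sequences (GRCh38.p14), 5′ to 3′, with the seed in capitals. The sequences of the array's own probes were not used here.
miR-29a: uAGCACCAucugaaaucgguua
miR-29b: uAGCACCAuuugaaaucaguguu
miR-29c: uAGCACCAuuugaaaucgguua
Counting from 1 at the 5′ end, miR-29a and miR-29c differ at 1 of 22 positions, C10U. MiR-29b has 23 bases. Over the first 22, it differs from miR-29c by G18A, U21G and A22U, and from miR-29a by these and C10U. Signals of the 3 members are therefore uncertain to the extent that each RNA binds another member's probe, which was not tested. The miR-29b probe was brighter than the miR-29a and miR-29c probes on every array. Among 2370 mature human miRNA names in the RefSeq table, the same 3 alone had the seed AGCACCA at bases 2 to 8.

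The family comes from 4 hairpins in a pair of clusters, all on the minus strand. MIR29A lies at chr7:130876747-130876810 and MIR29B1 at chr7:130877459-130877539, with 648 bases between them, and no other gene of the RefSeq table overlapped either. MIR29C lies at chr1:207801852-207801939 and MIR29B2 at chr1:207802443-207802523, 503 bases apart and both within the long noncoding RNA gene MIR29B2CHG. The mature miR-29b of both clusters is the same sequence, so its probe cannot say which cluster a change came from. The star strand of the MIR29B2 hairpin was measured separately, and that of MIR29B1 had no row. The hairpins of the 3 measured star strands are shown to place both arms, the star strand first and the mature strand second, each in capitals.
MIR29A: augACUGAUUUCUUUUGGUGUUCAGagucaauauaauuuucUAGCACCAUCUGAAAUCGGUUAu
MIR29B2: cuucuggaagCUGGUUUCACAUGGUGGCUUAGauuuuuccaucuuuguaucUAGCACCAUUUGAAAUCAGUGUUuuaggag
MIR29C: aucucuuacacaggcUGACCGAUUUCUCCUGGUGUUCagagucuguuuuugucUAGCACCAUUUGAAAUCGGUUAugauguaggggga

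The deposited values are normalized log2 signals, in which 1 unit is a doubling, and they ran from 3.52 to 15.78 over all probes. The authors had quantile normalized the arrays, so each value is relative to the other probes of its array. The distributions were not identical as deposited: the lower quartile was 6.79, 6.49 and 6.68 on the Mock arrays and 6.39, 6.46 and 6.46 on the HDAC6 arrays. Dim probes thus sat lower in HDAC6 as a group, and quantile normalization repeated over the rows held gave changes of -1.58 for miR-29a, -1.98 for miR-29b and -1.52 for miR-29c, in which all 3 kept their calls. A change in total miRNA cannot be seen, and fewer expressing cells cannot be told apart from less miRNA per cell. Correlations across probes were 0.922 to 0.959 between arrays of the same group and 0.779 to 0.848 between groups. HDAC6 was compared with Mock by limma over all 581 probes, two-sided, with Benjamini-Hochberg adjusted p-values and a threshold of 0.05. At that threshold 24.4% of all probes were lower in HDAC6 and 21.3% higher. Among the 386 guide-strand probes, the mature probes named without an asterisk and so without precursor and control probes, 29.5% were lower and 20.7% higher.

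All 3 mature members were lower in HDAC6 and passed the test, by 3.10-fold to 3.80-fold, against the 29.5% of guide-strand probes that were lower. Their groups did not overlap, as was so, with HDAC6 lower, for 35.8% of guide-strand probes. The median change of the family was -1.66 on the log2 scale, beside -0.21 for guide-strand probes and -0.09 for all probes. Ranked from the strongest fall, miR-29b stood at place 2, miR-29a at 16 and miR-29c at 18 of 386 guide-strand probes. The family had been chosen with these results known, so this share and these ranks describe the members and test nothing.

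MiR-29b had log2 signals of 10.91, 10.78 and 11.25 on Mock arrays 1, 2 and 3, and of 8.91, 8.70 and 9.55 on HDAC6 arrays 1, 2 and 3. The lowest Mock array stood more than 1 unit above the highest HDAC6 array. The mean fell from 10.98 ± 0.24 to 9.05 ± 0.44 (SD, n = 3), a log2 change of -1.93 with a 95% interval from -2.55 to -1.30 (limma, SE 0.27, adjusted p = 0.0027). Mature miR-29b is the member that both clusters encode.

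MiR-29c had signals of 8.33, 7.62 and 8.17 in Mock and of 6.44, 6.46 and 6.34 in HDAC6. The HDAC6 arrays lay close together, the Mock arrays spread over less than 1 unit, and the groups did not overlap. The mean fell from 8.04 ± 0.37 to 6.41 ± 0.06 (SD, n = 3), a log2 change of -1.63 with an interval from -2.16 to -1.10 (limma, SE 0.23, adjusted p = 0.0027). Its HDAC6 signals lay beside the lower quartile of the arrays, which was 6.39 to 6.46 in that group. MiR-29c is made from the chromosome 1 cluster alone.

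MiR-29a had signals of 8.51, 8.04 and 8.76 in Mock and of 6.36, 7.58 and 6.40 in HDAC6. HDAC6 array 2 stood more than 1 unit above the other HDAC6 arrays and within 0.5 units of Mock array 2, without reaching it. The mean fell from 8.44 ± 0.36 to 6.78 ± 0.69 (SD, n = 3), a log2 change of -1.66 with an interval from -2.51 to -0.81 (limma, SE 0.37, adjusted p = 0.0097). Without HDAC6 array 2 the change was -2.06 (adjusted p = 0.0069). MiR-29a is made from the chromosome 7 cluster alone.

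**Figure D1:**
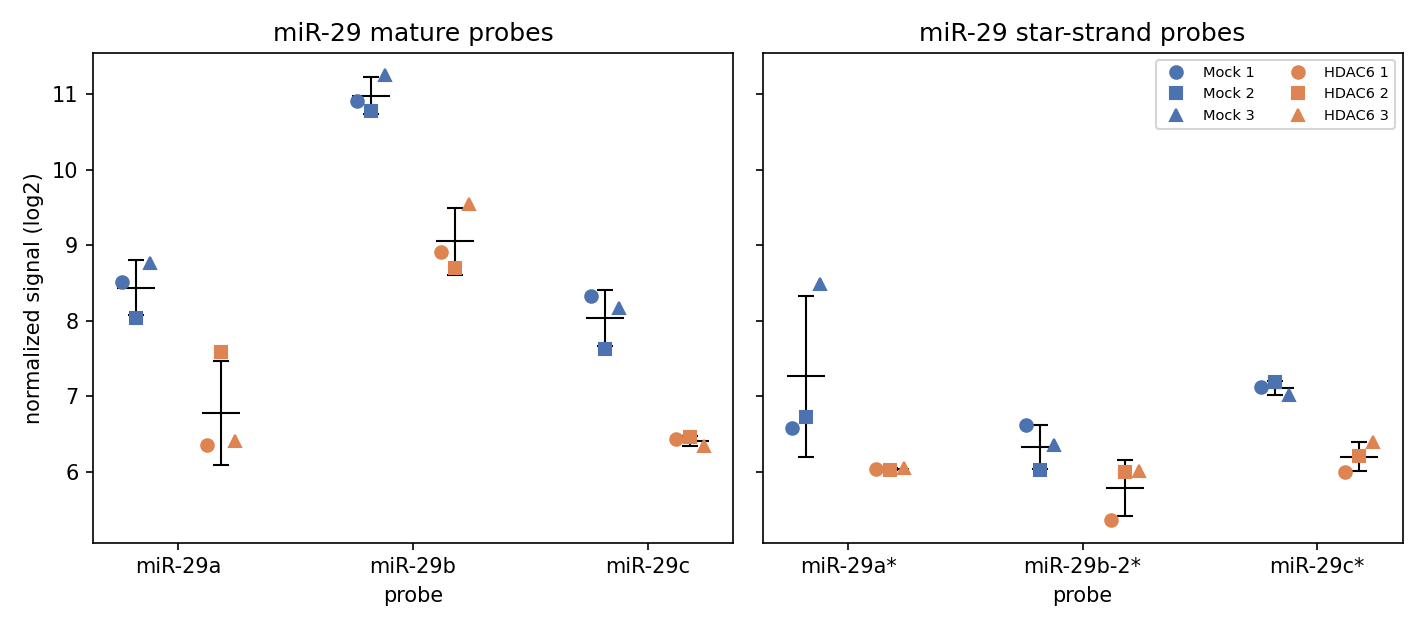
Normalized log2 signal (vertical axis) of the 3 mature miR-29 probes (left) and the 3 star-strand probes (right) on each Mock and HDAC6 array. Horizontal marks and bars are means ± SD over 3 arrays. The groups do not overlap for any of the mature probes, and HDAC6 array 2 is the highest of its group for miR-29a.

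The place of each probe within its array, which does not depend on the normalization between arrays, showed the same order of groups. MiR-29b stood at percentiles 94.4, 93.7 and 96.0 of the 581 probes on the Mock arrays and at 74.4, 72.5 and 82.9 on the HDAC6 arrays. MiR-29c stood at 67.2, 51.7 and 62.9 in Mock and at 25.9, 24.9 and 22.3 in HDAC6. MiR-29a stood at 69.6, 60.9 and 73.1 in Mock and at 23.7, 51.5 and 23.8 in HDAC6. Thus miR-29b remained in the upper part of each HDAC6 array, whereas miR-29c on all 3 HDAC6 arrays and miR-29a on 2 of them were near the lower quartile.

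**Figure D2:**
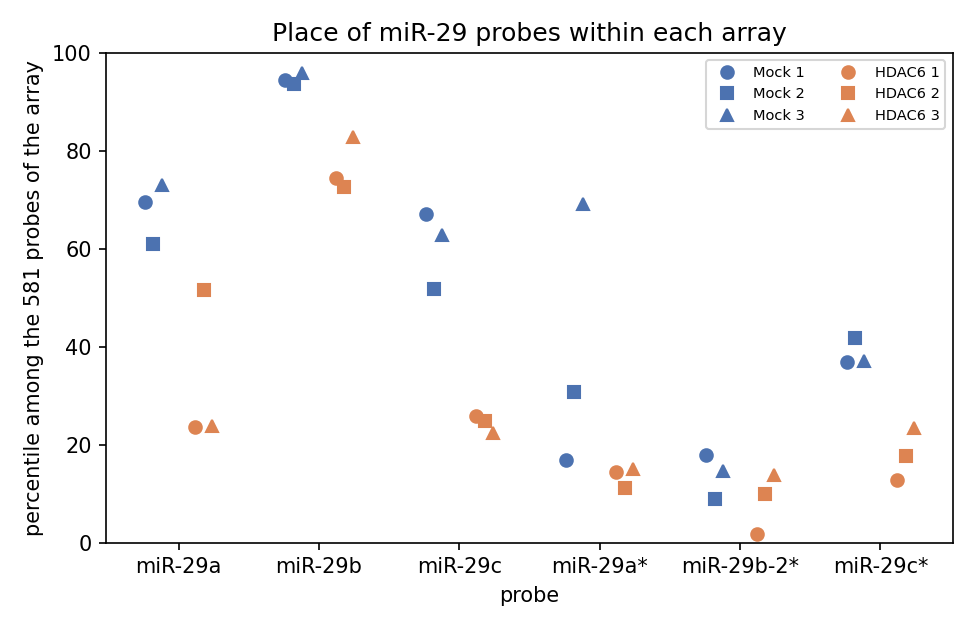
Percentile of each miR-29 probe among the 581 probes of its own array (vertical axis, 0 is the lowest signal), for the 3 Mock and 3 HDAC6 arrays. MiR-29b falls from 93.7 to 96.0 in Mock to 72.5 to 82.9 in HDAC6, and miR-29c on HDAC6 arrays lies between 22.3 and 25.9.

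No flag for detection was used, so the signal above background of dim probes is unknown. When the lower quartile of the antilogs was added to every linear signal as an offset before taking log2, the change of miR-29b was -1.75 (limma, adjusted p = 0.0027), that of miR-29a -1.09 (adjusted p = 0.013) and that of miR-29c -1.003 (adjusted p = 0.0035). The fold sizes of miR-29a and miR-29c thus depend on how low signals are treated, by more than 1.5 times for both on the log2 scale, while their direction and calls did not.

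**Figure D3:**
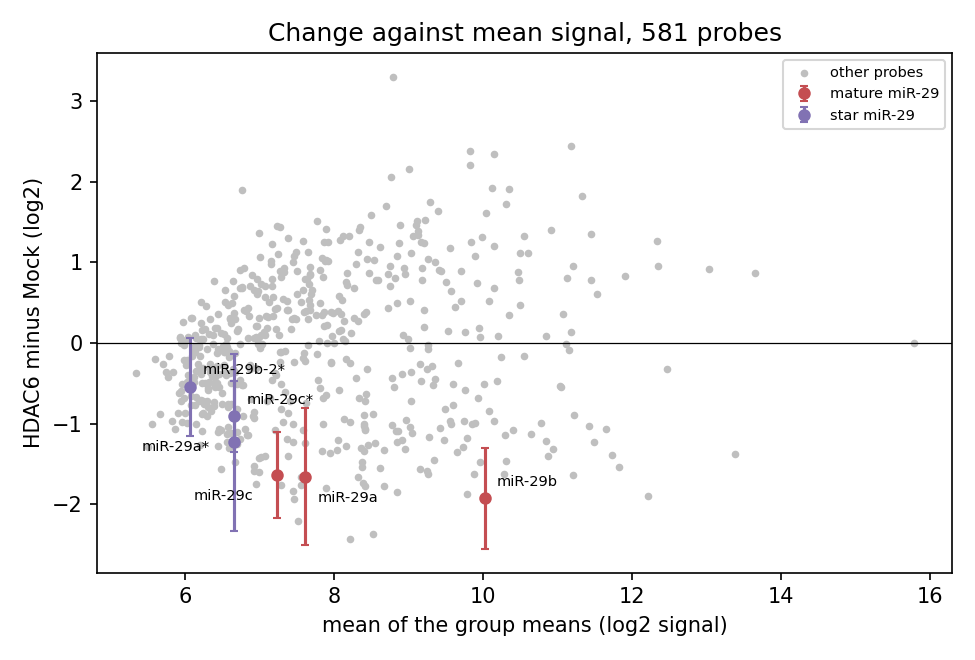
Difference between HDAC6 and Mock (vertical axis, log2) against the mean of the 2 group means (horizontal axis, log2 signal) for 581 probes. Coloured points are mature (red) and star-strand (purple) miR-29 probes with 95% intervals from limma. The intervals of the 3 mature probes lie below 0, with miR-29b at a much higher mean signal than miR-29a and miR-29c.

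Whether the members fell by unequal amounts was tested on the difference between 2 members within each array, over all 3 pairs. The signal of miR-29b minus that of miR-29a was 2.40, 2.74 and 2.49 in Mock and 2.55, 1.12 and 3.15 in HDAC6. These differences overlapped, and their change was -0.27 (exact two-sided permutation test, p = 0.9, adjusted over 3 pairs 1.0). It was 0.31 without HDAC6 array 2, so its sign rested on that array. For miR-29b minus miR-29c the change was -0.30 (exact permutation p = 0.5, adjusted 1.0), and it lay between -0.58 (without HDAC6 array 3) and -0.10 (without HDAC6 array 2). For miR-29a minus miR-29c it was -0.03 (exact permutation p = 1.0, adjusted 1.0), from -0.40 without HDAC6 array 2 to 0.20 without HDAC6 array 1, so its sign also rested on single arrays. With 3 arrays against 3, this permutation test cannot give a p below 0.1. The limma intervals of the 3 members overlap widely, and unequal falls within those intervals were not detectable.

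The star strands, the other arm of each hairpin, are usually less abundant than the mature strand, and 26.5% of the 83 star-strand probes were lower in HDAC6. For 31.3% of them HDAC6 lay below Mock with no overlap. MiR-29c* was 1 of them, with signals of 7.12, 7.19 and 7.01 in Mock and of 6.00, 6.21 and 6.39 in HDAC6. Its groups did not overlap, and it fell by 0.91 on the log2 scale (limma, SE 0.19, adjusted p = 0.0078). Both arms of the MIR29C hairpin shown above were thus lower in HDAC6. With arrays centred on 7 small RNA control probes the miR-29c* call was lost, at -0.83 (adjusted p = 0.081), and with the offset its change was -0.47 (adjusted p = 0.013).

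MiR-29a* had signals of 6.58, 6.72 and 8.49 in Mock and of 6.03, 6.02 and 6.04 in HDAC6. Mock array 3 stood far above the other 5 arrays, and the groups did not overlap. The change of -1.23 did not pass (limma, SE 0.47, adjusted p = 0.066), and without Mock array 3 it was -0.62 and passed (adjusted p = 0.039). With the offset it was -0.69 (adjusted p = 0.13). A control probe called "none", whose purpose was not given in the sources used here, was also highest on Mock array 3, at 8.73 against 5.48 to 6.92 on the others, and its part in the result was not tested.

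MiR-29b-2* had signals of 6.61, 6.03 and 6.35 in Mock and of 5.36, 6.00 and 6.01 in HDAC6. The groups came within 0.02 units of each other, and all 6 values were below percentile 18 of their arrays. Its change of -0.54 did not pass (limma, SE 0.26, adjusted p = 0.12), and it was -0.33 without HDAC6 array 1 (adjusted p = 0.39) and -0.22 with the offset (adjusted p = 0.19).

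Within each array, miR-29b minus miR-29b-2* was 4.29, 4.75 and 4.90 in Mock and 3.55, 2.70 and 3.54 in HDAC6, a change of -1.38 (exact permutation p = 0.1, the smallest that 3 against 3 allow, adjusted over 3 pairs 0.3). Because the star probe was dim on every array, this change is not a measure of a shift between the strands. The star strand also belongs to the MIR29B2 hairpin, while mature miR-29b comes from both hairpins. For miR-29c the change relative to miR-29c* was -0.72 (exact permutation p = 0.2, adjusted 0.3), with overlapping groups. For miR-29a relative to miR-29a* it was -0.42 (exact permutation p = 0.7, adjusted 0.7), also with overlapping groups, but -0.05 without Mock array 1 and -0.88 without Mock array 3. These comparisons of mature and star strands were added after the star values were seen.

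MiR-29c and 1 of the miR-29b hairpins share the transcript MIR29B2CHG. The star probe of that hairpin, miR-29b-2*, did not pass. The promoter window of the gene is shown because miR-29c was among the miRNAs that fell. It covers chr1:207822654-207822953 on the minus strand (GRCh38.p14), 250 bases before to 50 after the RefSeq start. Capitals mark CCAAT, the letters recognised by the activator NF-Y, or its reverse complement ATTGG.
MIR29B2CHG promoter: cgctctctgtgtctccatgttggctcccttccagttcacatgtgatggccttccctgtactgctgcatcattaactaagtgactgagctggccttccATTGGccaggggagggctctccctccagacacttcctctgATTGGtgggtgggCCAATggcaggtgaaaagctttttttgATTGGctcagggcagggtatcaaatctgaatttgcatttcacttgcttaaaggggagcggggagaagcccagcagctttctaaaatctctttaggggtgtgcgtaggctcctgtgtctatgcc
The window held 4 matches on either strand, the first letters at 153, 113, 100 and 73 bases before the start. Of 35116 RefSeq promoter windows of this length, 34.6% held at least 1 match and 0.991% held 4 or more. CACGTG, the letters bound by MYC with MAX, was in 7.26% of the windows and had 0 matches in this one. Both motifs were chosen after the sequence had been read, the arrays did not measure promoter activity, and a match of letters is not a bound site.

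Several other miRNAs act on the same processes, and 4 lists of them were described beside miR-29. Their names were set down from general knowledge with earlier results of these data known. Members were matched among guide-strand probes by name with any arm. Of 16 probes for miRNAs reported to restrain matrix production, 14 fell and 0 rose, with a median change of -1.42, where 29.5% of all guide-strand probes were lower and 20.7% higher. Many of the 14 are relatives of the miR-30, miR-200 and miR-19 families, so they may not be separate readings. The strongest falls were those of miR-30b, which represses the matrix inducer CTGF, at -1.87 (limma, adjusted p = 0.0047), and of miR-429, a miR-200 relative that maintains epithelial identity, at -1.76 (adjusted p = 0.0032). The weakest were those of miR-18a at -1.19 (adjusted p = 0.018) and miR-19a at -0.99 (adjusted p = 0.023), both of the miR-17/92 cluster. MiR-150 and miR-122, the main hepatocyte miRNA, did not pass, at -0.03 and 0.40.

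Of 11 probes for miRNAs reported to favour fibrosis, 9 also fell and 1 rose, with a median of -1.09, against the same 29.5% lower and 20.7% higher. MiR-192 was at -1.90 (limma, adjusted p = 0.0095), miR-33a, which lies in the sterol regulator gene SREBF2, at -1.76 (adjusted p = 0.0036), and miR-503 at -0.71 (adjusted p = 0.015). MiR-214 rose by 1.24 (adjusted p = 0.0038). The 9 falls became 4 without HDAC6 array 1, 5 without Mock array 1 or HDAC6 array 3, 5 with arrays centred on control probes, and 5 by a test against a 1.2-fold change. Falls over all 581 probes also became fewer in these settings, from 142 to 93, 101, 99, 85 and 103 in that order. The list median stayed between -1.24 and -0.88. The count of falls in this list thus depended on single arrays and on the setting, as did the count over all probes.

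MiR-29 also targets DNA methyltransferases, and of 14 probes for other miRNAs that repress enzymes of chromatin or DNA methylation, 10 fell and 0 rose (median -1.05), against 29.5% of guide-strand probes lower. MiR-342-3p, which represses DNMT1, was at -1.77 (limma, adjusted p = 0.0036) and miR-101, which represses the histone methyltransferase EZH2, at -1.66 (adjusted p = 0.0035). MiR-449a, which represses HDAC1, was at -0.98 (adjusted p = 0.025), and miR-140-5p at -0.86 (adjusted p = 0.031). The 4 that did not pass were miR-342-5p at -0.48, miR-143 at -0.38, miR-449b at 0.37 and miR-140-3p at 1.13. For miR-140-3p the HDAC6 signals were 12.79, 5.89 and 5.95 on arrays 1, 2 and 3, so its positive change rested on array 1. Among the 6 brighter probes of this list, 5 fell, where 80 of all 290 brighter probes were lower. The 10 falls became 7 with the offset, with centring on control probes, when quantile normalization was repeated, by the test against a 1.2-fold change, and without Mock array 1, HDAC6 array 2 or HDAC6 array 3. The count over all 581 probes also shrank in these settings, from 142 to 118, 85, 113, 103, 101, 132 and 99 in that order. With the offset the list median was -0.53.

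MYC is known to repress miR-29 transcription, and of 14 probes for other miRNAs it is reported to repress, 7 fell and 0 rose (median -0.99), against 29.5% of guide-strand probes lower. With the offset 7 fell as well, where 118 of all 581 probes were lower, and the list median was -0.65. MiR-30e was at -1.58 (limma, adjusted p = 0.0035), miR-195 at -1.57 (adjusted p = 0.011), the p53-induced miR-34a at -1.24 (adjusted p = 0.0030) and miR-22 at -1.08 (adjusted p = 0.0053). The 3 let-7 probes of the list, miR-15a, miR-16, miR-497 and miR-150 did not pass. The lists share some members, and MYC was not measured.

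**Figure D4:**
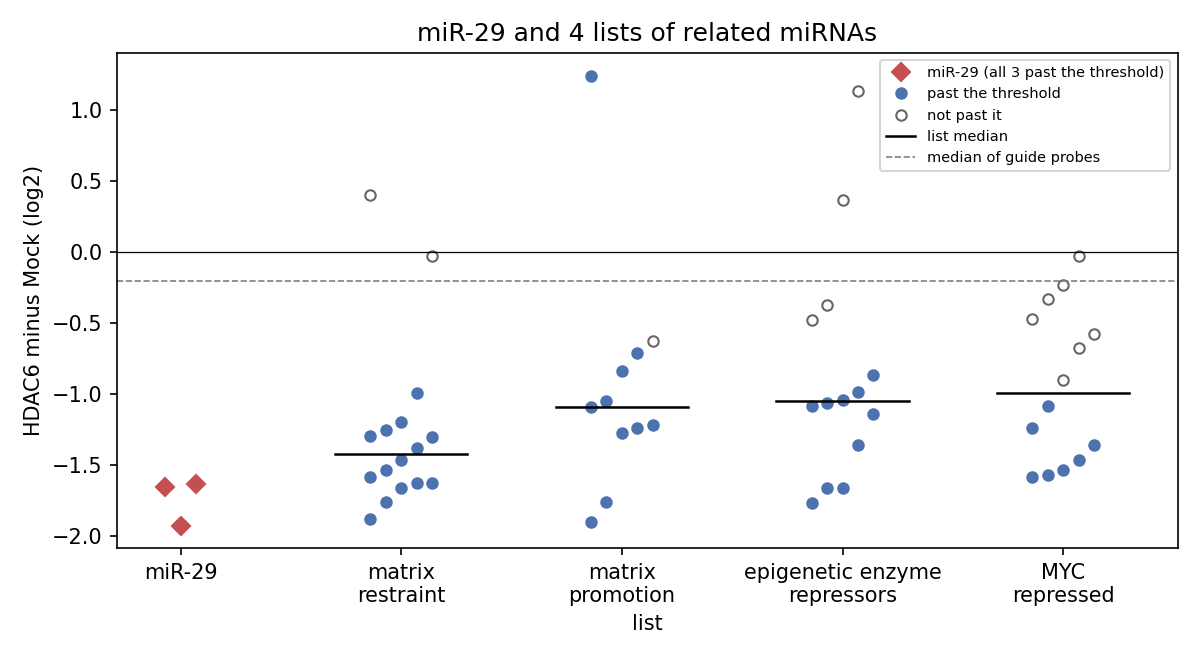
Difference between HDAC6 and Mock (vertical axis, log2) for the 3 miR-29 members (diamonds) and for each probe of 4 lists of related miRNAs (circles, filled where the adjusted p is under 0.05). Short lines are list medians of -1.42, -1.09, -1.05 and -0.99 from left to right, and the dashed line is the guide-strand median of -0.21.

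The guide-strand probes whose signal over the 6 arrays was most like the mean of the 3 members were miR-128a (Pearson r = 0.993), miR-99a (0.991), miR-218 (0.989, written mir-218 in the table), miR-28-5p (0.988) and miR-31 (0.987). MiR-128a had signals of 7.65, 7.33 and 8.07 in Mock and of 5.94, 6.29 and 6.24 in HDAC6. MiR-99a had 9.71, 9.17 and 9.92 in Mock and 8.15, 8.43 and 8.30 in HDAC6. In both, Mock array 2 was the lowest of its group and the groups did not overlap, as for the miR-29 members. Such likeness was common: 36 of 382 guide-strand probes had an r of at least 0.95 and 76 of at least 0.9. All these values share the same 6 arrays and the same difference between groups, so r is a description with no test.

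Signals of marker miRNAs are given as a description of the cells and cannot settle their identity. The hepatocyte miRNA miR-122 had signals of 7.31, 7.30 and 7.65 in Mock and of 7.66, 8.12 and 7.67 in HDAC6, and its change did not pass (limma, adjusted p = 0.17). It stood at percentiles 44.3 to 52.6 of the Mock arrays and 51.9 to 62.4 of the HDAC6 arrays. The linear signals of the 5 hepatocyte probes were summed. The log2 of that sum was 13.49 to 13.93 in Mock and 11.62 to 12.76 in HDAC6. MiR-192 was the brightest of the 5, with means of 13.15 in Mock and 11.26 in HDAC6. Of these 5 probes, miR-192 and miR-194 fell, miR-885-3p rose and the others did not pass. Among all guide-strand probes 29.5% were lower and 20.7% higher, and counts over so few markers are a description and no test. For the 4 fibroblast and smooth muscle probes, the log2 of the summed linear signals was 9.49 to 9.59 in Mock and 10.05 to 10.55 in HDAC6. MiR-214 was the brightest of the 4, with means of 8.58 in Mock and 9.82 in HDAC6. It was the 1 of 4 that passed, and it rose, where 20.7% of guide-strand probes were higher. MiR-145 (0.34), miR-143 (-0.38) and miR-199a-5p (-0.62) did not pass. The HDAC6 signals of miR-145 were 8.96, 6.63 and 6.43 on arrays 1, 2 and 3. With no flag for detection, these signals cannot show whether a marker was expressed, and the part of other cells in the miR-29 result was not tested. Blood, endothelial and striated muscle lists had 0 probes.

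**Figure D5:**
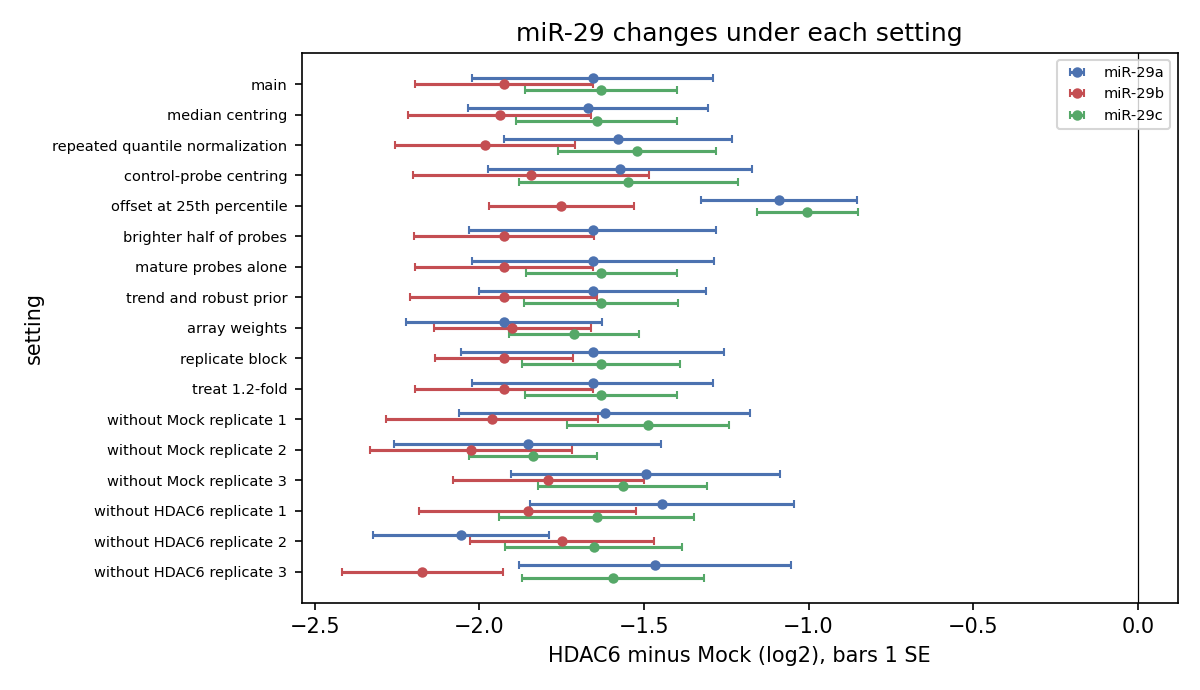
Change of each miR-29 member between HDAC6 and Mock (horizontal axis, log2, bars are 1 SE) under the reported setting (main) and under each alternative (vertical axis). Every estimate lies between -2.17 and -1.003, and the offset gives the smallest changes for miR-29a and miR-29c.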

How the data were processed

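Per the labels, biotin-labelled RNA was hybridized to a GenoExplorer microRNA chip and scanned on an Axon scanner. Per the series' design text, the authors read spots with GenePix Pro 5.0, removed poor spots by eye, averaged 3 spots per probe, and applied quantile normalization and class-specific filtering in GenePlex 3.0. The deposited values were taken as log2 signals, a scale read from the values themselves. The sources used here do not state the background correction, the probe sequences or the filter rule.

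Of 582 rows, 1 was blank. Groups and replicate numbers came from the sample titles. The fit used limma 3.58.1 in R 4.3.3 (lmFit, eBayes, no covariate), tested on simulated data first. Permutation tests used scipy 1.17.1. No precursor probe of the family had a row, so the planned comparison with precursors was not made. Members and lists were chosen with earlier results of these data known. Named were the members, their star strands, the 5 most similar guide-strand probes, and per list the 2 lowest and 2 highest changes past the threshold. The other list members, the marker probes and the probe "none" were named after their values were seen. Deviations of same-numbered arrays had correlations of 0.16, -0.09 and 0.19, and those of differently numbered arrays ran from -0.29 to 0.19. These ranges overlapped and the labels stated no pairing, so the numbers were not taken as pairs. A fit with the replicate number as a block is given below.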

Additional observations from a re-analysis of the deposited data

How the results depend on the processing

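MiR-29a and miR-29b kept their direction and their call in all 16 alternatives, and miR-29c in all 15 that included it, since miR-29c was not among the brighter probes by mean signal. Adjusted p ranged from 0.0017 to 0.036 for miR-29a, from 0.0011 to 0.012 for miR-29b and from 0.0010 to 0.012 for miR-29c. Leaving out each array in turn gave changes of -2.06 to -1.44, -2.17 to -1.75 and -1.84 to -1.49 in the same order. With the replicate block the changes were the same, -1.66, -1.93 and -1.63, with adjusted p of 0.022, 0.0060 and 0.0076, and miR-29a* passed at -1.23 (0.0496). MiR-29a* also passed with a trend and robust prior, at -1.23 (0.0496), without Mock array 1, at -1.57 (0.049), and without Mock array 3, at -0.62 (0.039). MiR-29b-2* passed with array weights, at -0.83 (0.027), and miR-29c* lost its call with control-probe centring, at -0.83 (0.081). The block changed no other call named for the family. Repeated quantile normalization moved the median of all probes from -0.09 to 0.08. Relative to it miR-29a, miR-29b and miR-29c were at -1.65, -2.06 and -1.60, against -1.57, -1.84 and -1.55 as deposited. Over all probes 124 were higher and 142 lower. Repeated quantile normalization gave 134 and 113. With control-probe centring these were 81 and 85, and among brighter probes alone 80 were lower, where fewer probes were tested. Leaving out each array gave 86 to 118 higher and 93 to 139 lower, the 93 without HDAC6 array 1. With the offset, the change of miR-29b minus miR-29c was -0.75, and that of miR-29b minus miR-29a -0.66. The cause of these shifts was not tested. The number of arrays and the unknown background limit the precision of dim probes.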
